A study of Homo sapiens with 18 samples.

Results

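The comparison described here sets fibroblasts exposed to 5-fluorouracil (5-FU) for 24 h directly against fibroblasts exposed to the same dose for 12 h, and asks which repeat RNA levels of the 12 h cells persisted, returned towards vehicle or went further. Its members are 4 libraries of the 18 in the series, namely both 12 h and both 24 h libraries of the 5-FU time course, read across 2404193 annotated repeat copies with 1113 repeat names. The cells were IMR90, human lung fibroblasts kept as an established line, wildtype in genotype. 5-FU, a pyrimidine analogue that disturbs the synthesis of thymidylate and is built into RNA, was given at 375 µM for 6, 12 or 24 h. Vehicle cells had DMSO in the volume of the drug for the same 6, 12 or 24 h, and untreated cells had fresh medium 12 h before extraction. Each of these 7 groups holds 2 libraries of total RNA, made with a stranded kit. Nothing in the labels says that replicates were separate cultures, so p-values measure the spread between these libraries, which may be technical. The table lists repeats and no gene, so the fibroblast label could not be checked against markers.

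Repeats are DNA families that spread through the genome in many copies. L1 elements are the autonomous retrotransposons of the human genome, with L1HS and the L1PA families as the youngest, L1M families as old ones, and most copies truncated at the 5′ end. Alu and SVA elements depend on L1 proteins for their movement, and MIR elements are an older group of the same non-autonomous kind. LTR elements such as MaLR, HERVH and HERVK derive from retroviruses, with internal (-int) sequence flanked by long terminal repeats, and some LTR10 and MER61 copies carry binding sites of p53, the transcription factor activated by damage from 5-FU. Charlie and Tigger are extinct DNA transposons. The annotation also lists structural RNAs, among them 7SK, which holds back the elongation factor P-TEFb, 7SL, the RNA of the signal recognition particle, BC200, an Alu-derived cytoplasmic RNA, and the Y RNAs, which bind the Ro60 protein. Most copies lie within or near other transcripts, and reads of an enclosing transcript cannot be told apart from reads of the repeat itself.

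HY1 rose and HY4 was not called, though both calls depend on the settings, as given below. Their changes were not tested against each other. The sequences of HY1 and HY4 are shown so that related Y RNAs with different main calls at 24 h can be compared. They were read from the GRCh38 transcripts, with genes matched through RefSeq names, and are given 5′ to 3′. The capitals mark the run of 8 or more bases that HY1 and HY4 share, which is 11 bases long.
HY1: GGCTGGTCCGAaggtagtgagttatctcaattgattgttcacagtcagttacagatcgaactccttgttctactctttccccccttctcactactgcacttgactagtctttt
HY4: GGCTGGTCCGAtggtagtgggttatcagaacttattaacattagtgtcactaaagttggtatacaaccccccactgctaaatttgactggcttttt
These genes lie on chromosome 7 (HY1 from 148987136 to 148987248, HY4 from 148963315 to 148963410) on GRCh38. All other positions in the text are those of the deposited table, which are on hg19 per the submitters' processing notes. No hg19 annotation was used, and copies are not assigned to genes.

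The 24 h libraries did not resemble each other as closely as the 12 h libraries did. Replicates 1 and 2 held 3927593 and 4084675 counts in total at 12 h, and 5034365 and 6290320 at 24 h. Structural RNA took 44.7% and 45.2% of the counts at 12 h, 43.7% in replicate 1 and 33.8% in replicate 2 at 24 h. At an equal 2171204 counts outside structural RNA, 313010 and 321555 copies would hold a count at 12 h, against 366631 and 501523 at 24 h. On log2(CPM + 1) over loci, the 12 h libraries correlated at 0.89 with each other and the 24 h libraries at 0.854, and 24 h replicate 1 correlated at 0.874 with both 12 h libraries. These are correlations across loci, which are not independent replicates. The 5-FU 24 h replicate 2 library thus stands apart, and the main counts are given with and without it. The DMSO 12 h libraries were the shallowest of the 14 and differed from the DMSO libraries of 6 and 24 h in several structural RNAs, so the time of each vehicle value is named.

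Between 12 and 24 h, 297 of 63602 tested loci rose (0.467%) and 286 fell (0.45%), by edgeR's quasi-likelihood test with a Benjamini-Hochberg adjusted p under 0.05. A locus here is a single annotated copy with enough counts for the test. At the risen loci the median level was 2.35 and 2.32 CPM (counts scaled to a common library size with TMM factors) in the 12 h libraries and 9.96 and 13.8 CPM in the 24 h libraries. In the 6 vehicle libraries it lay between 6.3 and 9.37 CPM. At the fallen loci it was 21.5 and 22.4 CPM at 12 h, 8.92 and 6.04 CPM at 24 h, and 12.8 to 17.7 CPM in the vehicle libraries. Untreated cells were at a median of 5.26 and 4.48 CPM at the risen loci, below every vehicle library. At the fallen loci they were at 22.5 and 23.8 CPM, near the 5-FU 12 h level. Over all tested loci the median was 1.76 and 2.03 CPM at 12 h and 2.08 and 2.32 CPM at 24 h. In bulk RNA, fewer cells with an RNA and less of it per cell cannot be told apart.

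Against the mean of DMSO 6 h and 24 h, 74 risen loci moved closer to vehicle, 212 crossed it and 11 moved away from it. Of the fallen loci, 59 moved closer, 152 crossed and 75 moved away. From 12 to 24 h, the median log2 difference from that mean went from -1.88 to 0.45 at the risen loci. At the fallen loci it went from 0.77 to -0.68. Both sets were chosen by the 24 h against 12 h difference, which favours movement towards and across vehicle. No such counts were made over all tested loci, so these are a description. Without 24 h replicate 2, 83 of the risen and 53 of the fallen loci were still called, and all 583 kept their direction. Without 24 h replicate 1, 284 and 279 were still called, of 1550 higher and 2376 lower in that fit. The spread behind these tests came from all 14 libraries, and with the 4 compared libraries alone 60 loci were higher and 15 lower. Scaling moved the split between directions, giving 435 higher and 234 lower when library size alone was used, 303 and 162 when TMM factors came from all copies, 162 and 203 when they came from the subfamily sums, and 327 and 372 with RLE factors. DESeq2 called 488 higher and 981 lower. Without 12 h replicate 1 the calls were 48 higher and 63 lower, and without 12 h replicate 2 they were 49 and 59. Risen copies had a median length of 628 bases and fallen copies 292.5, against 303 over all tested copies. Of the risen loci 45 had no count in either 12 h library, and of the fallen loci 11 had none in either 24 h library. Whether reads that match several copies were split, dropped or given to a single copy is not given in the sources used here, and a change in a young or structural repeat may therefore belong to another copy of it.

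Summed by repeat name, 215 of 1078 subfamilies rose (19.9%) and 19 fell (1.76%). This split rests on the scaling. When TMM factors came from the subfamily sums, 48 were higher and 40 lower, and the median difference over all subfamilies moved from 0.21 to 0.004 on the log2 scale. Of the 215 that rose, 48 also rose with those factors, and 46 rose without 24 h replicate 2. Of the 19 that fell, 18 also fell with those factors, and 7 fell without that library. Leaving out 12 h replicate 1 left 5 subfamilies called and leaving out 12 h replicate 2 left 2, all of them higher, and the 4 libraries alone gave 1 call. Subfamily differences below are therefore to be read against the median of 0.21, and the call under the other factors is given beside each group.

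**Figure D1:**
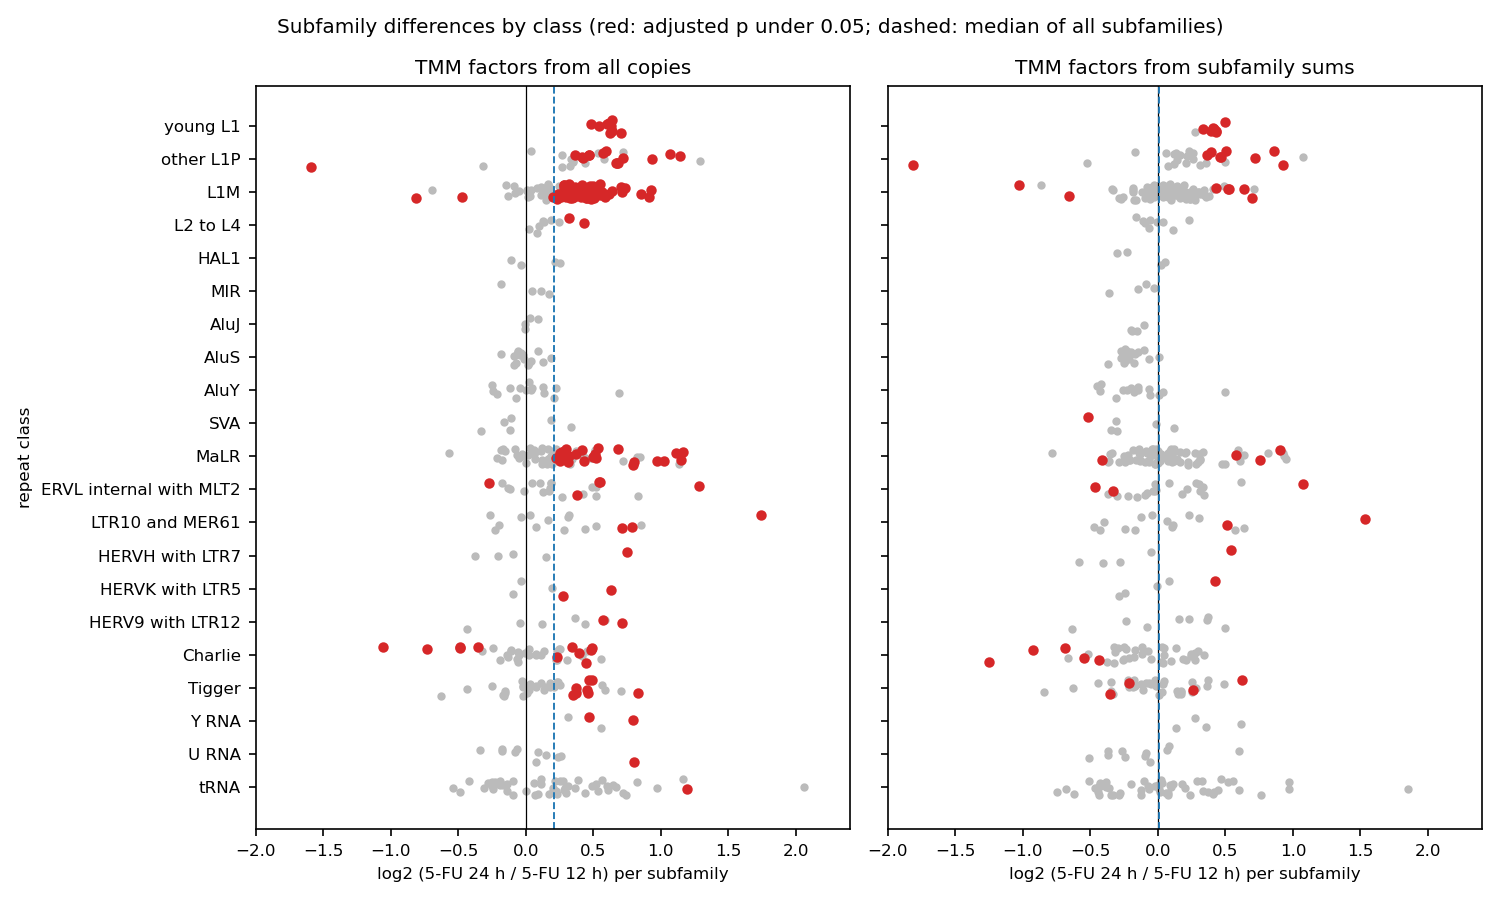
Each point is a repeat subfamily in the class named on the vertical axis, placed at its log2 difference between 5-FU 24 h and 5-FU 12 h (horizontal axis), with TMM factors from all copies on the left and from the subfamily sums on the right. Red points have an adjusted p under 0.05 and the dashed line is the median of all subfamilies, 0.21 on the left and 0.004 on the right; the young L1 points lie above that median in both panels.

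All 9 young L1 subfamilies rose between 12 and 24 h, against 19.9% of all subfamilies. Their log2 differences lay between 0.49 (L1HS) and 0.71 (L1PA3). L1HS, the family that holds the L1 copies still able to move, was at 498.7 and 454.4 CPM at 12 h and at 573.4 and 759.5 CPM at 24 h (log2 difference 0.49, SE 0.127, edgeR adjusted p = 0.0209). The L1HS libraries did not overlap, and DMSO 24 h was at 553.1 and 505.7 CPM. L1PA3 was at 2013 and 1768 CPM at 12 h, and at 2519 and 3645 CPM at 24 h (SE 0.146, edgeR adjusted p = 0.0107). In each of the 9, replicate 2 was the higher 24 h library. L1PA6 went from 1516 and 1505 CPM to 1988 and 2675 CPM, and L1PA8 from 598.3 and 613.5 CPM to 792.2 and 972.1 CPM. With the factors from subfamily sums 7 of the 9 rose, the exceptions being L1HS and L1PA2. Leaving out 24 h replicate 2, 4 rose, namely L1PA3, L1PA6, L1PA7 and L1PA8.

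The 12 h level of the young L1 subfamilies was below DMSO 6 h and 24 h, and the 24 h level was near them. Against the mean of DMSO 6 h and 24 h their median log2 difference was -0.51 at 12 h and 0.12 at 24 h, and against DMSO 12 h it was -0.16 at 12 h. The DMSO cells themselves differed by 0.22 between 12 and 24 h, under the DMSO median of 0.25 over all subfamilies. That DMSO median became 0.014 with the factors from subfamily sums, so values that use DMSO 12 h depend on the scaling. Over single young L1 loci, scaled by factors from the filtered loci, the median against DMSO 12 h was -0.62 at 12 h. As a share of all counts, young L1 took 1.00% and 0.945% at 12 h, and 1.18% and 2.05% at 24 h. In DMSO the share was 1.75% and 1.52% at 12 h, and 1.502% and 1.675% at 24 h. By this share replicate 1 lay under both DMSO 24 h libraries and replicate 2 above them. In CPM, young L1 summed to 14520 in replicate 1 and 20600 in replicate 2, with DMSO 24 h at 14130 and 15870, so that replicate 1 lay between the vehicle libraries on that scale. None of the 9 was called for a difference between the 5-FU and the DMSO change (edgeR interaction adjusted p from 0.153 to 0.415). The fitted differences were all upward in 5-FU, from 0.27 (L1PA8, SE 0.14) to 0.51 (L1PA4, SE 0.21) on the log2 scale. An equal change in both is therefore not shown.

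**Figure D2:**
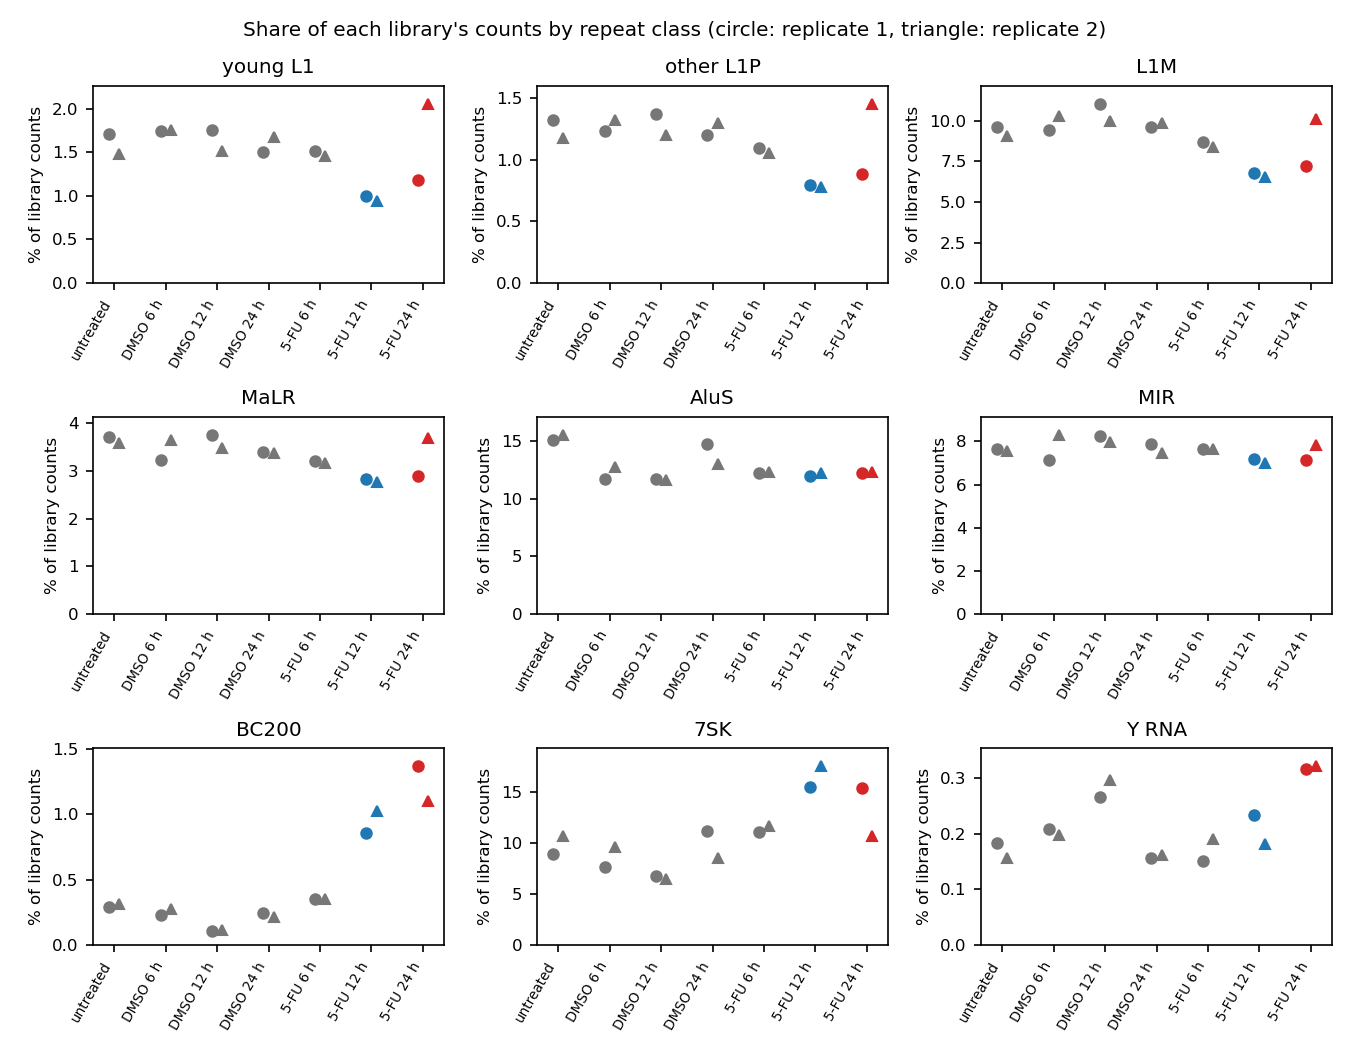
Each panel gives the share of a library's counts (%, vertical axis) that fell in a repeat class, for the 14 libraries of the 5-FU time course by group (horizontal axis), with 5-FU 12 h in blue and 5-FU 24 h in red. Young L1 took 1.00% and 0.945% at 12 h and 1.18% and 2.05% at 24 h, replicate 2 (triangle) being the higher, while AluS took 12.0% and 12.2% at 12 h and 12.2% and 12.3% at 24 h.

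Among single copies, 53 of 2402 tested young L1 loci rose (2.21%) and 9 fell (0.375%), beside 0.467% and 0.45% of all loci. Leaving out 24 h replicate 2 gave 14 higher and 1 lower. Copies of 5000 bases or more, near the length of a complete element, rose in 39 of 1187 cases (3.29%) and fell in 4. Shorter young L1 copies rose in 14 of 1215 cases (1.15%) and fell in 5. Over all repeats, 48 of 1498 copies of 5000 bases or more rose (3.2%) and 5 fell.

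The young L1 copy with the smallest p was an L1PA5 element of 5721 bases on chromosome 11, from 27686849 to 27692569. It was at 18.2 and 24.4 CPM at 12 h, and at 70.9 and 128.2 CPM at 24 h (log2 difference 2.23, SE 0.28, edgeR adjusted p = 0.000462). DMSO 24 h was at 53.9 and 72.4 CPM, so the 12 h libraries were the low ones. An L1PA6 copy on the same chromosome, from 57615330 to 57621467, went from 2.94 and 5.23 CPM to 22.0 and 28.5 CPM (log2 difference 2.62, SE 0.334, edgeR adjusted p = 0.000462). An L1PA3 copy on chromosome 8, from 69931240 to 69937385, held 0 and 5 counts at 12 h and 48 and 184 counts at 24 h. The DMSO libraries also differed at this L1PA3 copy, with 1 and 1 counts at 12 h and 94 and 108 at 24 h.

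Of the 12 and 24 h libraries of 5-FU, some young L1 copies held counts at a single time, and 3 of these were chosen after their values were seen. An L1HS copy of 6023 bases on chromosome 13, from 109162821 to 109168843, held 0 and 0 counts at 12 h and 105 and 52 counts at 24 h. Against a floor of 3 counts over the 12 h libraries it was at least 33.3-fold higher at 24 h. An L1HS copy on chromosome 1, from 237182768 to 237188794, held 3 and 130 counts at 12 h and 0 and 0 at 24 h, so that its 12 h level rests on replicate 2. An L1PA4 copy on chromosome 18, from 43374036 to 43380174, held 7 and 3 counts at 12 h and 0 and 0 at 24 h. Near-identical copies exist for each of these, and depth differed between the libraries as given above.

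The older L1 families had lower medians, 0.47 for other L1P and 0.30 for L1M subfamilies against 0.63 for young L1. Of 28 other L1P subfamilies 14 rose (50%, beside 19.9% of all) and 1 fell, and with the factors from subfamily sums 8 rose and 1 fell. Of 88 L1M subfamilies 50 rose (56.8%) and 2 fell, and with those factors 5 rose and 2 fell. Those that rose without 24 h replicate 2 were 7 of 28 and 7 of 88. At the level of copies, 25 of 1776 other L1P loci rose (1.41%) and 64 of 10996 L1M loci (0.582%), with 6 and 35 falling. Leaving out 24 h replicate 2 gave 3 risen and 2 fallen other L1P loci, and 23 and 11 L1M loci. L1M took 6.78% and 6.56% of the counts at 12 h and 7.201% and 10.13% at 24 h, and the 24 h replicates differed more from each other than replicate 1 did from the 12 h libraries.

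Within L1M, L1MA1 and L1MB7 were among the 8 risen subfamilies with the smallest p. L1MA1 was at 268.2 and 265.2 CPM at 12 h and at 374.1 and 455.1 CPM at 24 h (log2 difference 0.64, SE 0.099, edgeR adjusted p = 0.00557). L1MB7 went from 4743 and 4629 CPM to 6328 and 6200 CPM (log2 difference 0.42, SE 0.068), and both time points were tight. L1MB7 was not called with the factors from subfamily sums (edgeR adjusted p = 0.0701), nor without its most abundant copy (log2 difference 0.18, edgeR adjusted p = 0.0834), and DMSO differed by 0.35 over the same interval. L1M4c rose from 1519 and 1604 CPM to 2881 and 2232 CPM (log2 difference 0.71, SE 0.099, edgeR adjusted p = 0.00367). A single L1M4c copy on chromosome 11, from 65267133 to 65267487, held 56.1% of the counts of that name, and without it the log2 difference was 0.10. L1MEa fell from 36.3 and 31.8 CPM to 15.4 and 22.6 CPM (log2 difference -0.81, SE 0.176, edgeR adjusted p = 0.0127), and without its most abundant copy the value was 0.54 in the opposite direction. L1M6B fell from 387.6 and 368.1 CPM to 316.2 and 230.4 CPM (log2 difference -0.47, SE 0.123, edgeR adjusted p = 0.0209; 0.118 without 24 h replicate 2).

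Among the LTR10 and MER61 subfamilies, 3 of 16 tested rose and none fell, beside 19.9% of all subfamilies that rose. MER61C had the smallest p of all subfamilies. It was at 16.8 and 16.1 CPM at 12 h and at 49.9 and 59.6 CPM at 24 h (log2 difference 1.74, SE 0.235, edgeR adjusted p = 0.00367). DMSO was at 17.6 and 11.8 CPM at 12 h and at 20.03 and 25.55 CPM at 24 h, so MER61C lay above vehicle at 24 h and within the range of DMSO 12 h at 12 h. The internal sequence MER61-int was at 148.0 and 139.0 CPM at 12 h and at 214.7 and 256.0 CPM at 24 h (log2 difference 0.72, SE 0.128, edgeR adjusted p = 0.00662). LTR10E went from 20.9 and 31.0 CPM to 34.7 and 54.0 CPM (log2 difference 0.79, SE 0.231, edgeR adjusted p = 0.0304), and was not called with the factors from subfamily sums (edgeR adjusted p = 0.0907) or without 24 h replicate 2 (edgeR adjusted p = 0.294).

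Much of the MER61 difference lay in a single place on chromosome 5. A MER61-int copy from 27472822 to 27477649 was at 16.8 and 24.4 CPM at 12 h and at 87.8 and 100.5 CPM at 24 h (log2 difference 2.19, SE 0.302, edgeR adjusted p = 0.000881). The MER61C copy that adjoins it, from 27477650 to 27478102, went from 0.882 and 4.07 CPM to 17.8 and 21.1 CPM (log2 difference 2.96, SE 0.5). Without the most abundant copy of each name, the log2 difference of MER61-int was 0.013 and that of MER61C was 1.16 (edgeR adjusted p = 0.0138). Of 89 tested loci of the LTR10 and MER61 group these 2 were the ones called, and both were also called without 24 h replicate 2.

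Other retrovirus-derived groups rose in part. Of 78 MaLR subfamilies 27 rose (34.6%, beside 19.9% of all) and none fell. This became 3 risen and 1 fallen with the factors from subfamily sums and 6 risen without 24 h replicate 2. HERVH-int was at 132.9 and 143.1 CPM at 12 h and at 202.9 and 259.5 CPM at 24 h (log2 difference 0.75, SE 0.172, edgeR adjusted p = 0.0141), next to 207.2 and 236.1 CPM in DMSO 24 h. Its LTR7 sequences were not called, with LTR7 at 161.8 and 129.9 CPM and then 149.4 and 124.8 CPM. HERVK-int went from 129.7 and 121.8 CPM to 178.2 and 210.4 CPM (log2 difference 0.63, SE 0.14, edgeR adjusted p = 0.0131), and LTR5_Hs from 336.3 and 336.6 CPM to 425.7 and 389.1 CPM (log2 difference 0.28, SE 0.081, edgeR adjusted p = 0.0304). LTR5_Hs was not called with the factors from subfamily sums (edgeR adjusted p = 0.574). Both HERVK-int and LTR5_Hs were called without 24 h replicate 2, and HERVH-int was not (edgeR adjusted p = 0.0578). HERV9-int rose by 0.72 on the log2 scale (SE 0.204, edgeR adjusted p = 0.0268), with 24 h libraries at 184.4 and 303.2 CPM, and was called neither without replicate 2 nor with the factors from subfamily sums. Of 22 ERVL subfamilies 4 rose (18.2%, beside 19.9% of all) and 1 fell. With the factors from subfamily sums 1 rose and 2 fell, and without 24 h replicate 2 a single one rose.

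LTR1D, LTR45C, HERVK9-int and the DNA transposon Looper completed the risen subfamilies with the smallest p. LTR1D went from 50.7 and 53.0 CPM to 123.7 and 102.7 CPM (log2 difference 1.122, SE 0.173), but a single copy on chromosome 17, from 39270174 to 39271135, carried 75.6% of the LTR1D counts, and leaving it out gave -0.20. LTR45C went from 16.5 and 12.0 CPM to 29.3 and 35.2 CPM, HERVK9-int from 183.0 and 179.5 CPM to 267.7 and 323.3 CPM, and Looper from 41.3 and 52.5 CPM to 77.02 and 98.36 CPM. These 4 also rose with the factors from subfamily sums, and without 24 h replicate 2.

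Of the 19 subfamilies that fell, 8 moved closer to the mean of DMSO 6 h and 24 h, 9 crossed it and 2 moved away from it. As with the loci, the choice by the 24 h against 12 h difference favours such movement. Among Charlie elements 5 of 39 fell and 6 rose, beside 1.76% and 19.9% of all subfamilies. With the factors from subfamily sums 5 fell and none rose, and without 24 h replicate 2 the calls were 1 lower and 1 higher. Charlie12 fell from 56.6 and 55.9 CPM to 35.5 and 19.6 CPM (log2 difference -1.06, SE 0.224, edgeR adjusted p = 0.0113), next to 33.4 and 29.2 CPM in DMSO 24 h. A single copy held 98.5% of the Charlie12 counts. Charlie11 fell from 60.7 and 73.1 CPM to 48.7 and 32.8 CPM (log2 difference -0.73, SE 0.204, edgeR adjusted p = 0.0258), with 84.5% in a single copy and a value of 0.31 without it. It was not called without 24 h replicate 2 (edgeR adjusted p = 0.177). LTR76 fell from 130.6 and 126.1 CPM to 90.7 and 93.9 CPM (log2 difference -0.47, SE 0.091), where DMSO 24 h was at 89.7 and 87.4 CPM. UCON23 fell from 204.0 and 214.7 CPM to 156.2 and 116.2 CPM, with 96.7% of its counts in a single copy. MamSINE1 fell from 557.1 and 541.8 CPM to 453.8 and 416.6 CPM (log2 difference -0.34, SE 0.075). LTR53-int fell from 217.8 and 226.8 CPM to 187.3 and 157.8 CPM (log2 difference -0.37, SE 0.102), and was not called without 24 h replicate 2 (edgeR adjusted p = 0.176).

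No subfamily of AluJ (4 tested), AluS (17), AluY (15), the Alu monomers (4), SVA (6), MIR (4) or HAL1 (4) was called at 24 h against 12 h. Their medians were 0.014 for AluJ, -0.038 for AluS, 0.024 for AluY, 0.033 for the monomers, -0.114 for SVA, 0.079 for MIR and 0.092 for HAL1, all under the median of 0.21 over all subfamilies. Of these, 2 monomers, 1 AluS and 1 AluY subfamily were called higher without 24 h replicate 2. With the factors from subfamily sums 1 SVA subfamily, SVA_A, was called lower, from 143.0 and 139.3 CPM at 12 h to 123.0 and 102.5 CPM at 24 h. Among single Alu copies, 54 of 10358 AluS loci were lower (0.521%) and 16 higher, 12 of 1628 AluY loci were lower (0.737%) and 1 higher, and 19 of 4539 AluJ loci were lower (0.419%) and 11 higher. The share of all loci that fell was 0.45%. Of 6165 MIR loci 36 fell and 19 rose. The median log2 difference over loci was -0.147 for AluS, -0.175 for AluY, -0.115 for AluJ and -0.009 for MIR. Without 24 h replicate 2 it was -0.014 for AluS, -0.011 for AluY, -0.001 for AluJ and 0 for MIR. The excess of lower over higher calls was then smaller in AluS and AluY and turned round in AluJ and MIR. In all of these classes it therefore leans on that library.

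Satellite repeats are the tandem arrays of centromeres and other heterochromatin. Summed alpha satellite was not called, at 431.2 and 386.7 CPM at 12 h and 325.2 and 379.6 CPM at 24 h (log2 difference -0.21, SE 0.137, edgeR adjusted p = 0.265), and was called lower with the factors from subfamily sums (edgeR adjusted p = 0.0472). A pair of alpha satellite blocks on chromosome 19 fell. The first, from 28212954 to 28218421, was at 151.1 and 138.5 CPM at 12 h and at 66.5 and 51.7 CPM at 24 h (log2 difference -1.29, SE 0.217, edgeR adjusted p = 0.00447). The second, from 28218701 to 28221894, went from 54.1 and 50.5 CPM to 26.9 and 17.7 CPM, and was not called without 24 h replicate 2 (edgeR adjusted p = 0.064). DMSO cells also differed at the first block by -1.24 on the log2 scale between 12 and 24 h. Of 17 other satellite subfamilies 2 rose (11.8%, beside 19.9% of all subfamilies). They were D20S16, from 1.47 and 0 CPM to 3.67 and 8.93 CPM, and SATR2, from 12.1 and 20.4 CPM to 19.6 and 57.1 CPM. Neither was called without 24 h replicate 2.

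BC200 stayed above vehicle at 24 h. It was at 9940 and 12010 CPM at 12 h and at 16850 and 11000 CPM at 24 h (log2 difference 0.34, SE 0.152, edgeR adjusted p = 0.111). The 24 h replicate 2 library lies between the 12 h libraries, so the groups overlap, and without it BC200 was called higher (log2 difference 0.62, edgeR adjusted p = 0.00146). Against the mean of DMSO 6 h and 24 h, the log2 difference was 2.23 at 12 h and 2.57 at 24 h. At 6 h of 5-FU the level was 3923 and 4110 CPM, and in DMSO it was 2446 and 2623 CPM at 6 h, 841.8 and 915.9 CPM at 12 h, and 2298 and 2051 CPM at 24 h. The copy on chromosome 2 from 47562454 to 47562653 held 99.85% of the counts under that name.

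7SK and 7SL were not called either. 7SK was at 179300 and 205200 CPM at 12 h and at 188600 and 106500 CPM at 24 h (log2 difference -0.38, SE 0.208, edgeR adjusted p = 0.188). 7SL was at 96460 and 99900 CPM at 12 h and at 91910 and 51510 CPM at 24 h (log2 difference -0.45, SE 0.214, edgeR adjusted p = 0.129). In both, 24 h replicate 1 was near the 12 h libraries and replicate 2 was the low library. Without replicate 2 the log2 differences were -0.027 for 7SK and -0.095 for 7SL. The 3 ribosomal RNA names were not called, and of 56 transfer RNA names 1 rose (1.79%, beside 19.9% of all subfamilies). It was tRNA-Ser-TCA(m), from 68.7 and 65.1 CPM to 100.7 and 203.9 CPM. This call was lost without 24 h replicate 2 (edgeR adjusted p = 0.127) and with the factors from subfamily sums (0.0501).

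Of the U RNAs 1 of 11 rose (9.09%, beside 19.9% of all subfamilies). U13, a small nucleolar RNA, was at 40.4 and 56.8 CPM at 12 h and at 85.1 and 84.3 CPM at 24 h (log2 difference 0.80, SE 0.177, edgeR adjusted p = 0.0131), and DMSO differed by 1.13 on the log2 scale over the same interval. It was not called with the factors from subfamily sums (edgeR adjusted p = 0.0558). The spliceosomal U1 was at 39610 and 38130 CPM at 12 h and at 39060 and 22390 CPM at 24 h, with replicate 2 again the low library.

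Among the Y RNAs HY1 and HY3 rose, HY4 and HY5 were not called. HY1 was at 755.4 and 585.7 CPM at 12 h and at 1363 and 967.0 CPM at 24 h (log2 difference 0.80, SE 0.185, edgeR adjusted p = 0.0144). HY3 was at 1869 and 1481 CPM at 12 h and at 2433 and 2195 CPM at 24 h (log2 difference 0.47, SE 0.148, edgeR adjusted p = 0.0398). HY4 was at 74.9 and 58.5 CPM at 12 h and at 101.5 and 65.7 CPM at 24 h, so that its groups overlap (log2 difference 0.32, SE 0.199, edgeR adjusted p = 0.257). DMSO 24 h was at 463.8 and 480.3 CPM for HY1 and at 945.0 and 1000 CPM for HY3, below every 5-FU library of 12 and 24 h, while DMSO 12 h was at 1520 and 1830 CPM for HY3. Neither HY1 nor HY3 was called with the factors from subfamily sums (edgeR adjusted p = 0.0682 and 0.231), and both were called without 24 h replicate 2, as was HY4 (edgeR adjusted p = 0.0435).

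The counts of HY3 changed their place in the table between 12 and 24 h. The copy on chromosome 7 from 148680847 to 148680947 held 6107 and 4895 counts at 12 h and 224 and 251 at 24 h. The copy on chromosome 12 from 42848522 to 42848621 held 4 and 0 counts at 12 h and 9427 and 12804 at 24 h. At 6 h of 5-FU the replicates themselves differed in this way, with 4414 counts on chromosome 7 and 0 on chromosome 12 in replicate 1, and 124 and 6415 in replicate 2. These were the 2 Y RNA loci called, and for them the sum by name is the value to read, because HY3 differs in place within a group as well as between groups.

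The single copies with the smallest p at 24 h against 12 h came from several families. By rule these are 8 risen and 8 fallen copies, ranked by p, whose groups did not overlap and whose absolute log2 difference was at least 1. All 16 were also called without 24 h replicate 2 (edgeR adjusted p of 0.0108 or less). At the first of the risen copies, an LFSINE_Vert element (an ancient SINE) on chromosome 4 from 119955419 to 119955601, the level was 3.23 and 2.61 CPM at 12 h and 41.5 and 33.9 CPM at 24 h (log2 difference 3.67, SE 0.29, edgeR adjusted p = 1.21e-06). DMSO was at 51.0 and 52.9 CPM at 6 h, 33.0 and 37.9 CPM at 12 h, and 30.7 and 31.0 CPM at 24 h. With 5-FU 6 h at 54.0 and 47.2 CPM, the 5-FU 12 h libraries were the low ones among these. Untreated cells, at 9.01 and 11.7 CPM, were also below every DMSO library. A MER33 and a MIRc copy on chromosome 9, at 100618912 to 100619192 and 100619609 to 100619740, followed. MER33 went from 1.47 and 0.290 CPM to 27.1 and 18.0 CPM (log2 difference 4.63, SE 0.491, edgeR adjusted p = 0.000105), and MIRc from 0 and 1.16 CPM to 20.9 and 15.8 CPM. DMSO 24 h was at 16.1 and 16.3 CPM for MER33 and at 17.8 and 15.8 CPM for MIRc.

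Of the other risen copies, HAL1ME and L1ME4a lie on chromosome 11, at 65212484 to 65212578 and 65202701 to 65203040. HAL1ME went from 7.35 and 9.58 CPM to 32.9 and 68.1 CPM (log2 difference 2.58, SE 0.32), and L1ME4a from 9.70 and 7.84 CPM to 35.7 and 96.3 CPM (log2 difference 2.92, SE 0.371). In both, replicate 2 was the higher 24 h library by more than the whole spread of the 12 h libraries. The remaining 3 were the L1PA5, L1PA6 and L1PA3 copies given above.

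**Figure D3:**
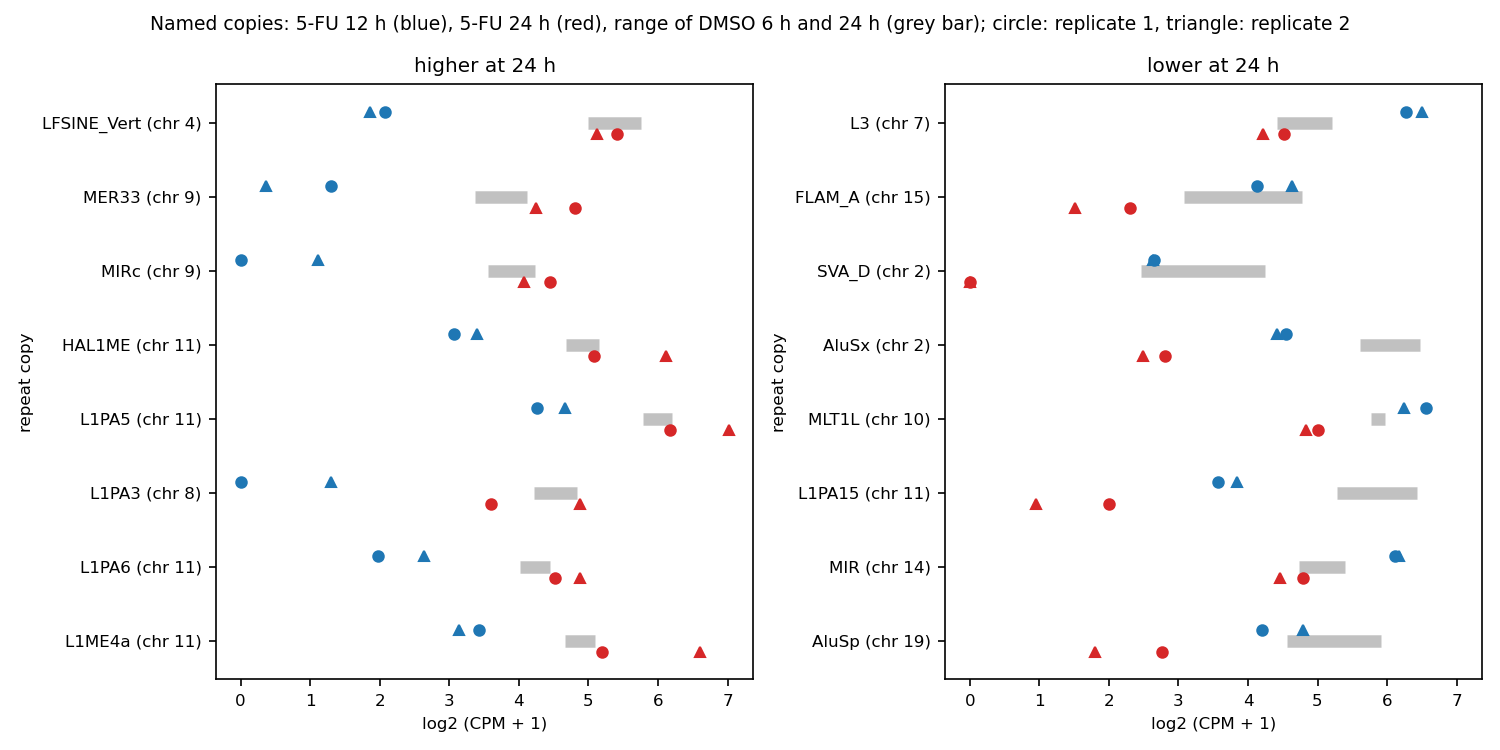
Each line is a named repeat copy with its chromosome, and the horizontal axis is log2(CPM + 1); blue points are 5-FU 12 h, red points 5-FU 24 h, and grey bars span DMSO 6 h and 24 h. The LFSINE_Vert copy went from 3.23 and 2.61 CPM to 41.5 and 33.9 CPM, back to the level of DMSO, while the AluSx and L1PA15 copies lay below DMSO at 12 h and lower still at 24 h.

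At the fallen copies the 24 h level was in part at vehicle and in part below it. An L3 copy on chromosome 7, from 103113132 to 103113185, fell from 76.4 and 90.0 CPM to 22.0 and 17.7 CPM (log2 difference -2.08, SE 0.222, edgeR adjusted p = 0.000105). DMSO differed there by -2.06 on the log2 scale, from 80.4 and 94.9 CPM to 20.4 and 21.7 CPM. A MIR copy on chromosome 14, from 74966005 to 74966157, was lower at 24 h in both, from 68.2 and 71.1 CPM to 26.6 and 20.9 CPM in 5-FU and from 77.8 and 83.8 CPM to 25.7 and 28.6 CPM in DMSO. An MLT1L copy on chromosome 10, from 102121515 to 102121720, went from 93.2 and 74.6 CPM to 31.0 and 27.4 CPM. DMSO was at 113.1 and 114.7 CPM at 12 h and at 53.7 and 54.2 CPM at 24 h for MLT1L. An Alu monomer, FLAM_A, on chromosome 15 from 41673058 to 41673105 went from 16.5 and 23.8 CPM to 3.94 and 1.86 CPM (log2 difference -2.85, SE 0.342), where DMSO was at 7.49 and 9.57 CPM at 6 h, 13.7 and 11.1 CPM at 12 h, and 26.4 and 23.7 CPM at 24 h.

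Further copies fell below vehicle. An SVA_D copy on chromosome 2, from 27017556 to 27018306, held 18 and 18 counts at 12 h and 0 and 0 at 24 h, at least 18.9-fold lower against a floor of 3 counts over the 24 h libraries. At this SVA_D copy the DMSO libraries of 6 h held 25 and 23 counts, those of 12 h held 21 and 26, and those of 24 h held 96 and 76. An AluSx copy on chromosome 2, from 10270758 to 10271040, fell from 22.3 and 20.3 CPM to 6.02 and 4.65 CPM (log2 difference -2.01, SE 0.252), with DMSO at 45.6 and 60.4 CPM at 12 h and 88.2 and 80.3 CPM at 24 h. An L1PA15 copy on chromosome 11, from 58893817 to 58894870, fell from 10.9 and 13.4 CPM to 3.01 and 0.929 CPM (log2 difference -2.72, SE 0.362), with DMSO at 116.4 and 104.4 CPM at 12 h and 85.2 and 83.3 CPM at 24 h. An AluSp copy on chromosome 19, from 11257472 to 11257775, fell from 17.3 and 26.7 CPM to 5.79 and 2.48 CPM, with DMSO at 22.7 and 27.5 CPM at 6 h, 16.3 and 22.9 CPM at 12 h, and 59.2 and 50.8 CPM at 24 h. At the AluSx and L1PA15 copies, 5-FU was thus below vehicle at 12 h and lower again at 24 h.

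Many called copies had another called copy nearby. With called loci of a direction joined when within 50 kb, 155 of the 297 risen loci lay in 41 neighbourhoods of at least 2, and 131 of the 286 fallen loci in 53. How often tested loci in general lie this close together was not computed. The counts therefore do not show that called copies cluster more than tested ones. Copies of a neighbourhood may be read from the same transcript and are not independent. Each span runs from its first to its last called copy. A high share of called copies within a span is therefore partly set by this definition. The neighbourhood with the most risen loci spans 16.6 kb on chromosome 11, from 65196003 to 65212578. All 28 tested copies there were higher at 24 h, 25 were called, and 15 were called without 24 h replicate 2. The summed level of the 28 was 261.0 and 230.0 CPM at 12 h and 804.2 and 1812 CPM at 24 h, against 443.0 and 445.2 CPM in DMSO 12 h and 731.7 and 929.4 CPM in DMSO 24 h. Replicate 1 thus reached the DMSO 24 h range and replicate 2 passed above it.

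**Figure D4:**
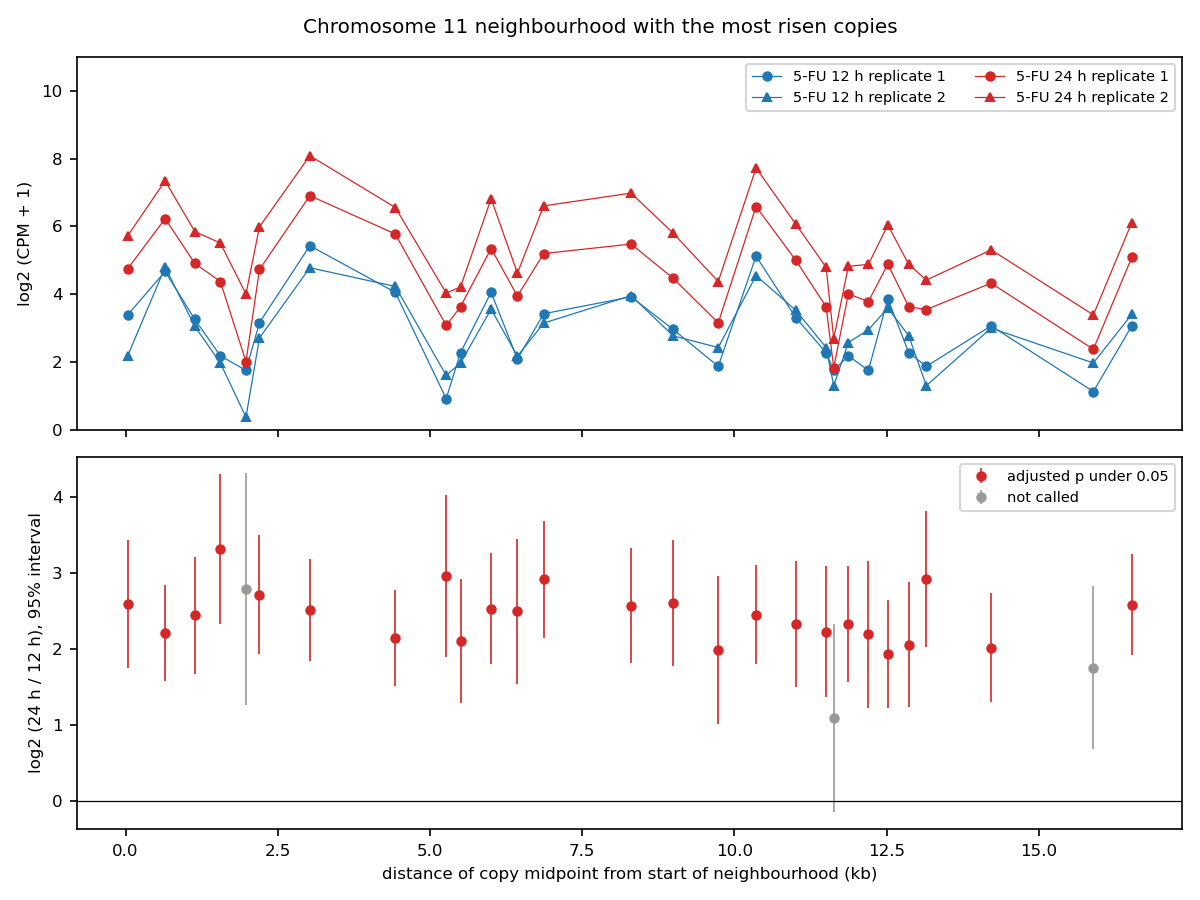
The upper panel gives log2(CPM + 1) of each of the 28 tested copies against its distance (kb) from the start of the chromosome 11 neighbourhood, for both 12 h (blue) and both 24 h (red) libraries; the lower panel gives the log2 difference of each copy with its 95% interval. All 28 differences are above 0 and 25 are called (red), and 24 h replicate 2 lies above replicate 1 at each copy.

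Smaller groups of risen copies lay on chromosome 1, from 85894703 to 85980225, and on chromosome 11, from 57589731 to 57621467. On chromosome 1, 10 of 61 tested copies were called, and the sum over all 61 went from 218.4 and 191.9 CPM to 442.0 and 761.4 CPM, with DMSO at 255.4 and 207.7 CPM at 12 h and 220.9 and 260.5 CPM at 24 h. On chromosome 11, 9 of 33 were called, with the sum over all 33 going from 40.3 and 44.7 CPM to 124.2 and 196.1 CPM, which is near DMSO 24 h at 167.0 and 183.4 CPM, with DMSO 12 h at 139.4 and 127.8 CPM. Of these, 3 and 2 were called without 24 h replicate 2. Among the fallen, all 5 tested copies on chromosome 19 from 11256181 to 11257775 were called, and their sum went from 79.4 and 105.7 CPM to 32.4 and 22.3 CPM, with DMSO at 98.9 and 127.5 CPM at 6 h, 102.3 and 129.6 CPM at 12 h, and 274.6 and 225.6 CPM at 24 h. The next were 4 neighbourhoods with 4 called loci each. On chromosome 1, from 68939919 to 68941929, 4 of 5 were called, with a sum over the 5 of 53.8 and 47.6 CPM at 12 h and 15.98 and 14.25 CPM at 24 h, where DMSO was at 70.1 and 95.2 CPM at 12 h and 149.6 and 133.8 CPM at 24 h. On chromosome 2, from 75466081 to 75506419, 4 of 7 were called, with a sum over the 7 of 151.7 and 162.6 CPM at 12 h, 73.7 and 39.3 CPM at 24 h and 36.3 and 29.9 CPM in DMSO 24 h. On chromosome 20, from 25426850 to 25428775, 4 of 7 were called, and the sum went from 38.2 and 39.8 CPM to 13.7 and 6.81 CPM, with DMSO 24 h at 88.5 and 76.2 CPM. On chromosome 5, from 52387801 to 52389425, 4 of 5 were called, and the sum went from 1329 and 1167 CPM to 680.4 and 478.3 CPM, with DMSO at 850.7 and 1081 CPM at 12 h and 392.0 and 348.0 CPM at 24 h. In these 5 neighbourhoods 1, 1, 0, 0 and 3 loci were called without 24 h replicate 2.

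The question of persistence was put to the repeats that stood away from vehicle at 12 h. A locus counts as away when it was called in the same direction against DMSO 12 h and against the mean of DMSO 6 h and 24 h, with an absolute log2 difference of at least 1 from both. By this rule 1974 loci were above vehicle at 12 h (3.1% of those tested) and 1417 below it (2.23%). This split rests on the scaling too, and library size alone gave 1099 above and 2423 below. The 12 h libraries enter both that choice and the 24 h against 12 h difference, so a shift back towards vehicle is favoured by the choice itself, and the counts that follow are a description.

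Most loci above vehicle at 12 h were not called as changed by 24 h, which does not show that their levels persisted. Of the 1974, 1699 were lower at 24 h whether called or not, with a median log2 difference of -0.57 over all 1974. Of the 1974, 64 were called lower at 24 h (3.24%, beside 0.45% of all loci) and none was called higher. For 330 the 95% interval of the difference lay within 1 log2 unit on either side of 0, and these are described as held. The median 12 h distance from the mean of DMSO 6 h and 24 h was 1.89 log2 units over all 1974. Over the 330 the median level was 24.7 and 25.6 CPM at 12 h and 27.3 and 20.4 CPM at 24 h, with 7.58 and 7.14 CPM in DMSO 24 h. At 24 h, 765 of the 1974 were still called above DMSO 24 h. How many of all tested loci were called so was not counted, and the 765 therefore do not measure persistence. Over the 1974 the median level was 11.8 and 11.9 CPM at 12 h and 9.73 and 6.97 CPM at 24 h, with 3.37 and 3.10 CPM in DMSO 24 h. Replicate 2 was the nearer to vehicle.

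Of the 1417 loci below vehicle at 12 h, 125 were called higher at 24 h (8.82%, beside 0.467% of all loci) and 8 were called lower still. Called or not, 1244 were higher at 24 h, with a median log2 difference of 1.51 over the 1417. For 106 of the 1417 the level was held, and 271 were still called below DMSO 24 h, again with no count over all tested loci. Over the 106 the median level was 9.11 and 9 CPM at 12 h and 9.84 and 8.52 CPM at 24 h. DMSO 24 h was at 20.9 and 18.9 CPM there, so the window for held covers much of the distance to vehicle. Over the 1417 the median level was 0.882 and 0.871 CPM at 12 h and 2.08 and 2.79 CPM at 24 h, with 4.49 and 4.82 CPM in DMSO 24 h. By class, those that came back were 34 of 387 L1M loci below vehicle (8.79%), 24 of 153 young L1 loci (15.7%) and 12 of 84 other L1P loci (14.3%). From above, 10 of 218 MIR loci (4.59%) and 8 of 450 AluS loci (1.78%) came back. With library size alone, 33 of the 1099 and 214 of the 2423 came back. Without 24 h replicate 2 the numbers that came back were 9 from above and 38 from below, and without replicate 1 they were 353 and 460, out of 2184 and 1735 loci in the first case and 2125 and 1744 in the second. How many 12 h levels were called as returning therefore depends on which 24 h library is read.

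The loci furthest from vehicle by p show each outcome. An L1MB7 copy on chromosome 16, from 88455450 to 88455994, was at 169.9 and 161.7 CPM at 12 h and at 187.9 and 123.4 CPM at 24 h (log2 difference -0.09, 95% interval -0.59 to 0.40), and at 8.051 and 10.49 CPM in DMSO 24 h. It was held at a level 3.68 log2 units above the mean of DMSO 6 h and 24 h. An ERVL-B4-int copy next to it, from 88456368 to 88456738, was at 91.1 and 85.1 CPM and then at 106.1 and 66.9 CPM, and was held too. An L1MA5A copy on chromosome 12, from 69237117 to 69237249, was at 134.9 and 140.0 CPM at 12 h and at 127.4 and 132.6 CPM at 24 h. An MLT1A1 copy on chromosome 11, from 27664028 to 27664403, was at 32.3 and 34.3 CPM and then at 19.2 and 13.0 CPM (log2 difference -1.05, SE 0.297, edgeR adjusted p = 0.0879), which did not pass. An LTR17 copy on chromosome 8, from 55060881 to 55061641, did not pass either, at 102.3 and 98.4 CPM and then 69.0 and 42.1 CPM (edgeR adjusted p = 0.106).

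On the lower side, the LFSINE_Vert copy described above came back to vehicle. An L1MDa copy on chromosome 8, from 69959113 to 69960572, rose from 2.06 and 4.36 CPM to 28.7 and 17.5 CPM, with DMSO 24 h at 45.7 and 34.2 CPM. A MER45C copy on chromosome 16, from 33964922 to 33965030, rose from 2.06 and 1.45 CPM to 7.41 and 11.9 CPM, and stayed below DMSO 24 h at 33.5 and 33.6 CPM. An L1MB8 copy on chromosome 10, from 50659157 to 50662326, rose from 4.12 and 5.52 CPM to 12.1 and 13.5 CPM, with DMSO 24 h at 23.6 and 31.3 CPM. Neither MER45C nor L1MB8 was called without 24 h replicate 2 (edgeR adjusted p = 0.157 and 0.13). An L1MD3 copy on chromosome 9, from 21865801 to 21867638, was held low, at 6.47 and 5.23 CPM at 12 h and 5.79 and 4.80 CPM at 24 h, against 26.4 and 27.7 CPM in DMSO 24 h. The 8 loci that went further down were the L1PA15, AluSx and L1PA4 copies given above, AluJb on chromosome 8, L2c on chromosome 10, AluSz on chromosome 1, and 2 adjoining L2a copies on chromosome 12. At AluJb, from 48890052 to 48890318, the level went from 28.8 and 28.5 CPM to 15.3 and 13.0 CPM, with DMSO 24 h at 78.1 and 78.6 CPM. Without 24 h replicate 2, of these 8, AluSx, L1PA15 and the L2a copy from 105414251 to 105414574 were still called.

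Among subfamilies, with no minimum difference, 143 were above vehicle at 12 h (13.3%) and 52 below it (4.82%), against 28 and 344 with library size alone. Their median distance from the mean of DMSO 6 h and 24 h at 12 h was 0.51 and -0.69 on the log2 scale, less than the window of 1 used for single copies, so no subfamily is described as held. Of the 143, 13 were called lower at 24 h and 2 went further up, MER61-int and MLT1A-int. MLT1A-int was at 98.5 and 108.7 CPM at 12 h and at 151.4 and 148.4 CPM at 24 h (log2 difference 0.53, SE 0.097, edgeR adjusted p = 0.00662). The other 128 were not called, BC200 among them, and 64 of the 143 were still called above DMSO 24 h. The share of all subfamilies called so was not counted. LTR9B was not called, at 226.7 and 192.4 CPM and then 190.2 and 163.9 CPM, nor was HERVL74-int, at 566.8 and 455.0 CPM and then 471.4 and 433.8 CPM. LTR53-int came back in part, and at 24 h its level of 187.3 and 157.8 CPM was still above the 115.6 and 110.9 CPM of DMSO 24 h.

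Of the 52 subfamilies below vehicle at 12 h, 32 were called higher at 24 h (beside 19.9% of all), none was called lower and 20 were not called. The 32 hold 11 L1M subfamilies, 3 Tigger subfamilies and HERVH-int. Over all tested subfamilies, 50 of 88 L1M and 8 of 40 Tigger subfamilies rose. How the 52 divide by class was not counted, so the class numbers among the 32 are a description. L1ME3F went from 527.6 and 503.1 CPM to 581.2 and 631.0 CPM (log2 difference 0.23, SE 0.072), and Tigger2a from 346.6 and 354.9 CPM to 443.3 and 463.1 CPM (log2 difference 0.37, SE 0.066). MER68-int was not called, at 149.4 and 137.9 CPM and then 132.8 and 125.1 CPM. At 24 h, 3 of the 52 were still called below DMSO 24 h, likewise with no count over all subfamilies. Without 24 h replicate 2, 5 came back from above and 16 from below. With the factors from subfamily sums 125 were above vehicle and 141 below, and 15 and 31 came back. With library size alone 2 of the 28 and 111 of the 344 came back.

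**Figure D5:**
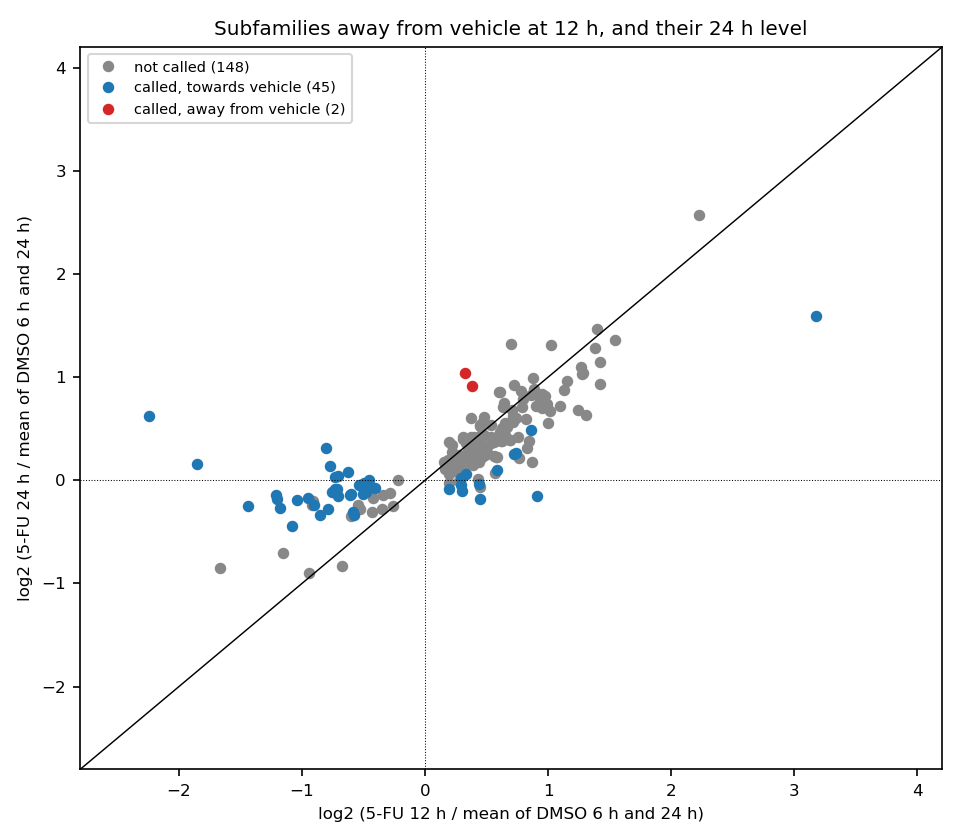
Each point is 1 of the 195 subfamilies that stood away from vehicle at 12 h, with its log2 difference from the mean of DMSO 6 h and 24 h at 5-FU 12 h (horizontal axis) and at 5-FU 24 h (vertical axis); points on the diagonal have the same level at both times. Blue points were called closer to vehicle at 24 h, and of the 52 subfamilies to the left of 0, 32 are blue; grey points were not called; the 2 red points, MER61-int and MLT1A-int, moved away, and BC200 lies at 2.23 and 2.57.

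The vehicle cells changed over the same interval. Between DMSO 12 h and DMSO 24 h, 328 loci were higher and 481 lower (1.27% of those tested), and 245 subfamilies were higher and 19 lower (24.5%). With TMM factors from all copies the DMSO loci split into 715 higher and 227 lower. Under the factors from subfamily sums, 57 DMSO subfamilies were higher and 62 lower. The difference between the 5-FU change and the DMSO change passed at 132 loci in the higher and 251 in the lower direction (0.602%), which became 225 and 235 with library size alone and 203 and 183 without 24 h replicate 2. For subfamilies it passed for 9 higher and 97 lower (9.83%), and for 15 and 31 with the factors from subfamily sums. Of the 297 risen loci 53 passed this test, and of the 286 fallen 83. Of the 215 risen subfamilies 7 passed it, and none of these was a young L1. The risen and fallen sets were chosen by the 5-FU change, which is part of this test. Passing is thus favoured by the choice, and these counts are a description. HY3 passed, with a change of 0.47 in 5-FU and -0.78 in DMSO on the log2 scale (SE of the difference 0.21, edgeR adjusted p = 0.00453).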

How the data were processed

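Total RNA of 18 IMR90 samples was sequenced, and the 14 libraries of the 5-FU table were used, 2 per group. The authors deposited raw counts per annotated repeat copy. Trimmomatic 0.32, cutadapt 1.10, Bowtie2 and hg19 are named in the submitters' processing notes, and the counter, its use of strand and its treatment of reads that match several copies are not given in the sources used here. Counts were summed by repeat name. edgeR 4.0.16 (R 4.3.3) fitted its quasi-likelihood model to the 7 groups together, after filterByExpr (63602 loci, 1078 subfamilies), with TMM factors from the filtered loci for loci and from all copies for subfamilies, and Benjamini-Hochberg adjustment at 0.05. CPM values use the same factors. The script was tested on simulated data. Named were the 8 risen and 8 fallen loci (absolute log2 difference of at least 1) and subfamilies with the smallest p and no overlap, the neighbourhoods with the most called loci (within 50 kb, 3 per direction), the 5 loci and subfamilies furthest by p from vehicle at 12 h in each direction, and members of the class lists. Members and lists were chosen with earlier results of these data known. Alternatives were other scalings, filters, DESeq2 1.42.0, the 4 libraries alone, each library left out and a replicate block. The other 4 samples of the series are not analysed here. The 24 h against 12 h and the 12 h against vehicle comparisons share the 5-FU 12 h libraries. Some sequences are not reported here.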

Additional observations from a re-analysis of the deposited data

Results flagged for a closer look

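For 18 of the named repeats the 24 h minus 12 h change differed between 5-FU and DMSO by edgeR's interaction test with Benjamini-Hochberg adjustment. The named copies, and the subfamilies named by smallest p, were chosen by the 5-FU change, which is part of this test. A difference in the direction of that change is therefore favoured by the choice. Each value below is the 5-FU change minus the DMSO change on the log2 scale, and each rests on the DMSO 12 h libraries too, which were the shallowest.

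The difference was positive at 5 risen copies. At LFSINE_Vert on chromosome 4 it was 3.87, from a change of 3.67 in 5-FU and -0.2 in DMSO (adjusted p = 7.1e-06). At MER33 on chromosome 9 it was 5.73 (4.63 and -1.1, adjusted p = 2.55e-05), and at the MIRc copy beside it 5.45 (4.9 and -0.55, adjusted p = 0.000138). At L1PA5 on chromosome 11 it was 1.89 (2.23 and 0.34, adjusted p = 0.0216), and at L1ME4a on chromosome 11 it was 2.52 (2.92 and 0.4, adjusted p = 0.0211).

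It was negative at 5 fallen copies. At AluSp on chromosome 19 it was -3.96 (-2.47 in 5-FU and 1.48 in DMSO, adjusted p = 6.3e-05), at FLAM_A on chromosome 15 it was -3.86 (-2.85 and 1.01, adjusted p = 0.000138), and at AluSx on chromosome 2 it was -2.68 (-2.01 and 0.67, adjusted p = 0.000182). At L1PA15 on chromosome 11 it was -2.33 (-2.72 and -0.39, adjusted p = 0.0118). The fitted value of -8.34 at SVA_D on chromosome 2 (adjusted p = 0.000225) depends on the prior count, since both 5-FU 24 h libraries held 0 counts there.

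Among subfamilies, HY3 differed by 1.25 (adjusted p = 0.00453) and MER61-int by 0.63 (adjusted p = 0.0498), both upward in 5-FU relative to DMSO. In the other direction the difference was -0.96 for BC200 (0.34 in 5-FU and 1.31 in DMSO, adjusted p = 0.0167) and -1.23 for 7SK (-0.38 and 0.84, adjusted p = 0.0215). It was -0.68 for UCON23 (adjusted p = 0.033), -1.26 for Charlie12 (adjusted p = 0.0316), -0.98 for L1MEa (adjusted p = 0.022) and -0.49 for MamSINE1 (adjusted p = 0.0147).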

How the results depend on the processing

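For 5-FU 24 h against 12 h, loci, 583 calls became 365 with TMM factors from the subfamily sums, 1133 with at least 10 counts in every library, 1469 with DESeq2, 75 with the 4 libraries alone, 121 at an adjusted p under 0.01, and 108 to 3926 with a library left out. For 5-FU 24 h against 12 h, subfamilies, 234 calls became 79 with RLE factors, 148 by library size alone, 88 with factors from subfamily sums, 105 with factors from the filtered loci, 107 without structural RNA, 127 with DESeq2, 1 with the 4 libraries alone, 29 at 0.01, 31 with an absolute log2 difference of at least 1, and 2 to 550 with a library left out. For DMSO 24 h against DMSO 12 h, loci, 809 became 475 with factors from subfamily sums, 1558 with DESeq2 and 135 to 181 with a library left out. For DMSO 24 h against DMSO 12 h, subfamilies, 264 became 118 (RLE), 84 (library size), 119 (subfamily sums), 148 (filtered loci), 142 (DESeq2) and 107 to 146 (a library left out). For the 5-FU effect at 24 h minus 12 h, loci, 383 became 933 with DESeq2 and 97 to 1542 with a library left out, and for subfamilies 106 became 47 (RLE), 28 (library size), 46 (subfamily sums) and 22 to 356. The 195 subfamilies away from vehicle at 12 h became 372 by library size alone. The young L1 share differed by 0.643 percentage points, and by 0.205 to 1.08 with a library left out.

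Over pairs of groups, the deviations of same-numbered libraries correlated across loci at -0.1123 to 0.1541 (-0.0129 between 5-FU 12 h and 24 h), and since not every pair was over 0.1 the numbers were not taken as pairs. With a replicate block, 437 loci and 195 subfamilies were called for 5-FU, 639 and 246 for DMSO, and 307 and 73 for the difference.

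Of 420 values for 31 named loci, 363 kept direction and call, 42 lost the call, 3 gained it and 12 changed sign. Those 12 were loci held near 0: L1MB7 on chromosome 16 (0.021 by library size, 0.207 with at least 10 counts, -0.426 to 0.18 with a library left out), ERVL-B4-int (0.082 by library size, 0.041 with TMM from all copies, 0.042 with no filter, 0.02 without 12 h replicate 1, -0.397 to 0.268 over all libraries left out), L1MA5A (0.064 by library size, 0.271 with at least 10 counts) and L1MD3 (0.184 with at least 10 counts, -0.299 to 0.006 with a library left out). Of 549 values for 37 named subfamilies, 387 kept direction and call, 153 lost the call, 4 gained it and 5 changed sign. Without the most abundant copy the sign changed for LTR1D (-0.197), L1MEa (0.538), Charlie11 (0.31) and 7SK (0.027), and HY4 was at -0.021 to 0.607 with a library left out. Beyond the settings whose construction tests fewer loci or fewer libraries, the cause was not tested. With 2 libraries per group, low-count loci were the least precise.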
